A study of Mus musculus with 33 samples.

Results

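Arg1 and Vegfa are 2 of the 67 immune genes of an nCounter panel that was read in 33 libraries of mouse monocytes, 30 of them recovered after transfer into other mice and 3 not transferred. Both genes were chosen by their levels across tissues and recipient states in these libraries, so those levels are given below as a description without a test. Counts of both genes were available in all 33 libraries, and both are among the 57 panel genes measured in every library.

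Arg1 encodes arginase 1, the enzyme that splits arginine into ornithine and urea. Macrophages make it in healing wounds and after exposure to type 2 cytokines, and hepatocytes use it in the urea cycle. By taking up arginine it competes with nitric oxide synthase, and its product ornithine feeds polyamine and proline synthesis during tissue repair. Vegfa encodes vascular endothelial growth factor A, a secreted ligand of receptors on endothelial cells that drives the growth of blood vessels. Its transcription in macrophages responds to low oxygen and to inflammatory stimuli.

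Donor cells were monocytes purified from bone marrow (BM) of C57BL/6 WT mice. Recipients were C57BL/6 CCR2-/- mice, which lack the chemokine receptor that brings monocytes out of the marrow, and all recovered cells shared this recipient genotype. Manipulated recipients had undergone surgical handling of the small intestine (SI) 1 day before the transfer, with anaesthesia and Novalgin in the drinking water per the methods of the study, whereas non-manipulated recipients had no surgery. No library came from sham-operated mice, so inflammation, surgery and the drug cannot be told apart. Libraries of 100 sorted donor cells recovered at day 1 numbered 4 from SI, 3 from liver, 3 from spleen and 3 from BM of non-manipulated recipients. Manipulated recipients gave 5 from SI, 2 from liver, 3 from spleen and 3 from BM. In another 4 libraries from SI the donors had been manipulated and the recipients had not. Primary monocytes, that is purified cells that were not transferred, were read in 2 libraries of non-manipulated donors and 1 library of a manipulated donor. The methods describe digestion with collagenase for SI and liver but not for spleen and BM, so tissue and digestion cannot be told apart. The titles number the libraries of each group as different mice, with 1 conflict given below. A p-value here reflects how such libraries vary, part of which may be technical. Nothing in the labels says whether libraries with the same mouse number in different tissues came from the same animal, so libraries of different tissues may not be independent.

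Total counts of the gene probes ranged from 653885 to 1626501 per library. The background of a library, its mean negative control count plus 2 SD over 5 probes, lay between 16.7 and 65.2 counts. Libraries 3 and 4 of manipulated SI had geometric means of the positive control probes of 267 and 247 counts, against 386 to 729 counts in the other 31 libraries. Counts follow PCR amplification and are not independent molecules, so counting error covers only part of the error of a value. Levels are given as normalised counts, that is counts divided by a factor from the house-keeping genes Actb, Gapdh and Rpl19, or as log2 of the normalised count plus 1. The SE of a difference comes from 1 fit over all 33 libraries, with a spread shared by all groups. It can therefore be larger or smaller than the spread within the groups compared would give.

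The Arg1 probe covers positions 627 to 726 of transcript NM_007482.3. The gene lies at chr10:24915207-24927470 in GRCm38.p6 and has 1 annotated transcript. The Vegfa probe covers positions 1831 to 1930 of NM_009505.4, and the gene lies at chr17:46016993-46032377 with 10 annotated transcripts. A single probe reads each gene, so isoforms were not resolved. The 250 bases before the outermost start of Vegfa (chr17:46032378-46032627, minus strand, RefSeq, GRCm38.p6) are shown because the level of this transcript separated the tissues. Capitals mark the GC box GGGCGG, searched on both strands.

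Vegfa promoter: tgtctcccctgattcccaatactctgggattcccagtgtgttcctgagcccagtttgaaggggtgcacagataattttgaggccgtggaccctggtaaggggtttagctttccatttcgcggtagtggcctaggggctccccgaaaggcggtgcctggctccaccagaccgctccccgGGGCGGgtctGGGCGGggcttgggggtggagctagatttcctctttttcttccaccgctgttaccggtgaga

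GC boxes lay at -72 to -67 and -62 to -57 relative to the start, and 32.7% of 32851 promoter windows of the same length held at least 1. The hypoxia response core ACGTG, held by 16.6% of the windows, was not found in these 250 bases on either strand. The same was true of the AP-1 motif TGANTCA, held by 6.75%, and of the C/EBP motif TTGCNNAA, held by 9.56%. No match says only that these letters are not in this window.

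Arg1 was low in monocytes before transfer. Primary monocytes of non-manipulated donors had 87.2 and 143 normalised counts, and those of the manipulated donor 62.0 normalised counts. All 33 Arg1 counts exceeded the background of their library, the lowest by a factor of 1.72.

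In non-manipulated SI, Arg1 stood at 590.3, 386, 290.3 and 224 normalised counts in libraries 1 to 4. The mean log2 level was 8.45 ± 0.60 (SD, n = 4), which was 1.63 ± 1.43 (SE) above primary monocytes of non-manipulated donors. All 4 libraries lay above both primary libraries. The difference was close to its standard error, which takes in the spread of all groups of the fit. The SD of these primary monocytes was 0.50 (n = 2).

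In manipulated SI, Arg1 stood at 16444, 7111, 251028, 152874 and 5779 normalised counts in libraries 1 to 5. The mean log2 level was 14.89 ± 2.53 (SD, n = 5). Every library of manipulated SI lay above every library of non-manipulated SI, and the lowest of the former exceeded the highest of the latter by 3.29 on the log2 scale. The difference of the means was 6.44 ± 1.11 on the log2 scale (SE), or 86.8-fold. Among all 57 genes, 33.3% passed the limma test in this comparison (11 higher and 8 lower, against 14 and 2 with the series matrix values and 10 and 13 with scaling by total count), and for 21.1% all libraries of manipulated SI lay higher. As Arg1 was chosen on this contrast, nothing is read from its place among them.

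Libraries 3 and 4 of manipulated SI stood apart from the other 3 of their group. The lower of these 2 libraries had 9.30 times the normalised Arg1 count of the highest of the other 3. Arg1 took 15.6% of all gene counts in library 3 (95% Wilson interval 15.6 to 15.7) and 9.56% in library 4 (9.50 to 9.62), against 0.399% to 1.01% in libraries 1, 2 and 5. These are also the libraries with the lowest positive controls, whose part in the result was not tested. Without both, the difference from non-manipulated SI was 4.65 on the log2 scale, and the groups still did not overlap. Libraries that the authors deposited without a lane multiplier (libraries 1 and 2 of each group) differed by 4.50, and those deposited with one by 7.88, on the same scale.

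Liver held the next highest Arg1 levels. Non-manipulated liver had 1683, 10485 and 571 normalised counts, a log2 mean of 11.08 ± 2.12 (SD, n = 3) and an excess of 4.26 ± 1.51 (SE) over primary monocytes of non-manipulated donors. Manipulated liver had 7638 and 8843 normalised counts, a log2 mean of 13.01 ± 0.15 (SD, n = 2). Both libraries of manipulated liver fell inside the range of the 3 libraries of non-manipulated liver. The difference between the states was 1.93 ± 1.51 on the log2 scale (SE), and it was 3.07 without library 2 and 0.97 without library 3 of non-manipulated liver. Hepatocytes express Arg1 strongly, and none of the 4 listed hepatocyte markers (Alb, Apoa1, Ttr and Cps1) was measured in the panel, so a part of hepatocyte RNA in the liver libraries was not tested. The cells had been sorted by flow cytometry as donor-derived cells, and what this gate left of hepatocyte RNA was not tested.

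Spleen and BM held low Arg1 levels in non-manipulated recipients. Spleen had 106, 197 and 99.8 normalised counts and BM 108, 154 and 99.9 normalised counts. The SD of the log2 level was 0.54 in spleen and 0.33 in BM (n = 3 each). These 6 libraries differed from primary monocytes of non-manipulated donors by 0.19 ± 1.51 in spleen and 0.08 ± 1.51 in BM on the log2 scale (SE), and both signs turned with TMM factors, with scaling by total count or without Rpl19 among the house-keeping genes. In manipulated recipients spleen had 215, 93.9 and 290.1 normalised counts, and the difference between the states was 0.49 ± 1.35 (SE). Manipulated BM had 332, 82.6 and 1412 normalised counts, a log2 mean of 8.41 ± 2.04 (SD, n = 3), and differed from non-manipulated BM by 1.51 ± 1.35 (SE), or by 2.52 without library 2 and 0.48 without library 3 of manipulated BM. Library 3 of manipulated BM, with the highest of these values, lay above all other libraries of spleen and BM, while library 2 lay below all libraries of non-manipulated BM. The change of Arg1 in SI exceeded the mean of its changes in liver, spleen and BM by 5.13 on the log2 scale, a contrast in which 14% of all genes passed the limma test and from which nothing is read for Arg1.

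**Figure D1:**
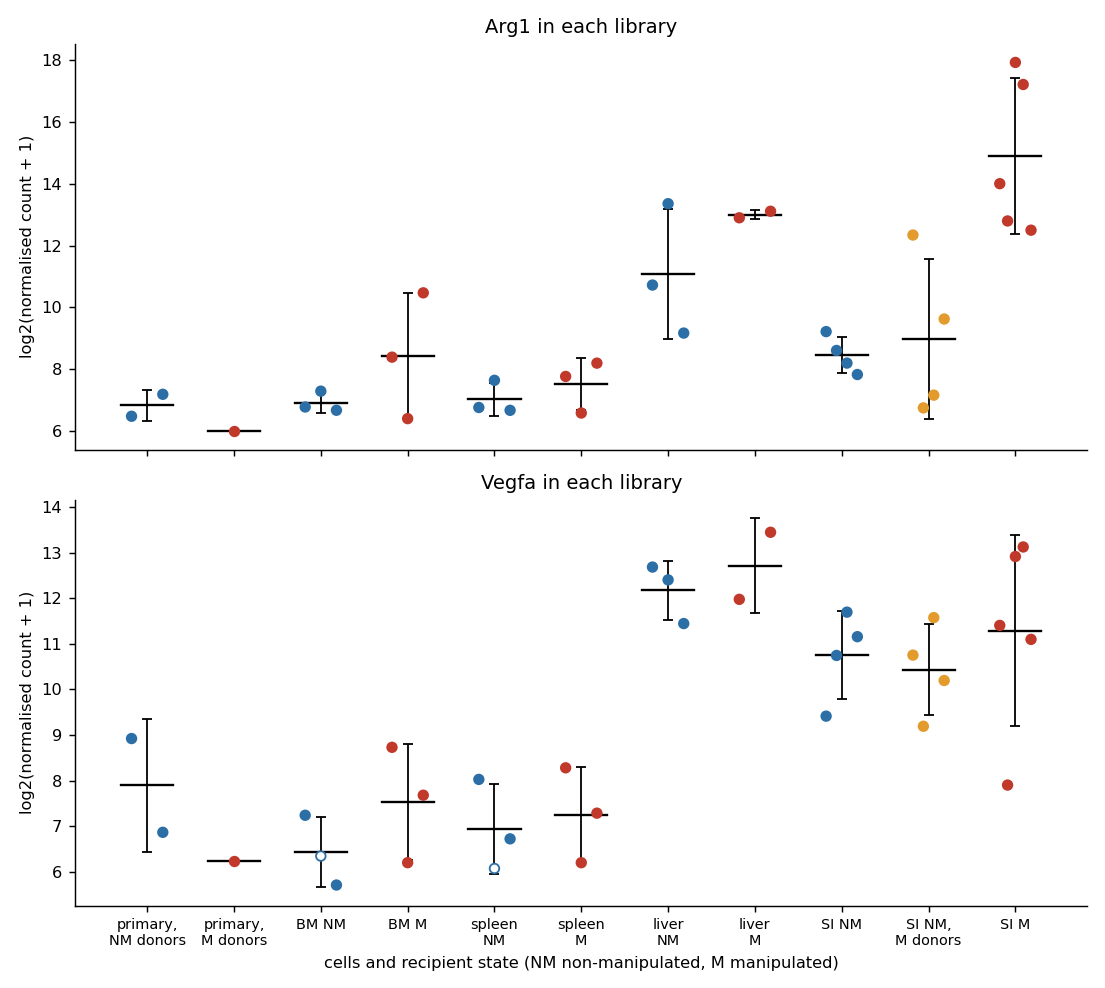
Level of Arg1 (top) and Vegfa (bottom) in each library, as log2 of the normalised count plus 1, by tissue and recipient state; lines are group means, bars 1 SD, blue points non-manipulated, red points manipulated, orange points manipulated donors in non-manipulated recipients, and open points counts not above the background. Arg1 in manipulated SI lies between 12.50 and 17.94 against 7.82 to 9.21 in non-manipulated SI, whereas the Vegfa ranges of these groups overlap.

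Ordered by mean log2 level, Arg1 was highest in manipulated SI (14.89), followed by manipulated liver (13.01), non-manipulated liver (11.08), non-manipulated SI with manipulated donors (8.96), non-manipulated SI (8.45) and manipulated BM (8.41). Manipulated spleen (7.50), non-manipulated spleen (7.01), non-manipulated BM (6.90) and primary monocytes of non-manipulated (6.82) and manipulated (5.98) donors followed. From non-manipulated liver down to primary monocytes of non-manipulated donors, no neighbours in this order differed by more than their pooled SD. The first 2 steps exceeded the pooled SD, but their libraries overlapped. Fewer cells that express a gene and less of its RNA per cell cannot be told apart in these libraries of pooled cells.

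Vegfa was high in SI and liver and low in spleen and BM, apart from 1 library of manipulated SI. Non-manipulated SI had 682, 1716, 3313 and 2282 normalised counts, a log2 mean of 10.75 ± 0.97 (SD, n = 4). Manipulated SI had 2708, 239, 7713, 8920 and 2190.1 normalised counts, a log2 mean of 11.29 ± 2.09 (SD, n = 5). The groups overlapped widely, since library 2 of manipulated SI was the lowest of all 9 libraries and libraries 3 and 4 the highest. The difference was 0.54 ± 0.82 on the log2 scale (SE), or 1.45-fold. Without libraries 3 and 4 of manipulated SI it was -0.62.

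Liver had the highest Vegfa levels. Non-manipulated liver had 6573, 5410.0 and 2785 normalised counts, and manipulated liver 4025 and 11149.9 normalised counts. The log2 means were 12.18 ± 0.65 (SD, n = 3) and 12.71 ± 1.04 (SD, n = 2), and the difference between the states was 0.53 ± 1.12 (SE) with overlapping libraries. Compared with primary monocytes of non-manipulated donors, at 485 and 116 normalised counts, Vegfa stood 4.28 ± 1.12 higher in non-manipulated liver and 2.86 ± 1.06 higher in non-manipulated SI on the log2 scale (SE). No library of either tissue overlapped with these primary libraries. The primary monocytes of the manipulated donor had 74.7 normalised counts of Vegfa.

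In spleen and BM, Vegfa counts ranged from 0.782 to 18.1 times the background of the library, under 4 times in 7 of the 12 libraries of both states and at 6.81 times or more in the other 5. Non-manipulated spleen had 260.1, 66.5 and 105 normalised counts and non-manipulated BM 150.4, 80.5 and 51.5 normalised counts. Library 2 of spleen (51 counts) and library 2 of BM (47 counts) did not exceed their background of 65.2 and 47.5 counts. Vegfa exceeded the background in the other 31 libraries. Manipulated spleen had 310.4, 72.7 and 155 normalised counts and manipulated BM 424, 72.7 and 204 normalised counts. The differences between the states were 0.31 ± 1.00 in spleen and 1.10 ± 1.00 in BM on the log2 scale (SE), with overlapping libraries in both. Relative to primary monocytes of non-manipulated donors, Vegfa differed by -0.95 ± 1.12 in non-manipulated spleen and -1.46 ± 1.12 in non-manipulated BM (SE).

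In non-manipulated recipients the mean of SI and liver exceeded the mean of spleen and BM by 4.78 ± 0.69 for Vegfa and by 2.81 ± 0.93 for Arg1 on the log2 scale (SE). All 7 libraries of SI and liver lay above all 6 of spleen and BM for both genes, as they did for 8.77% of the 57 genes. In manipulated recipients the corresponding differences were 4.60 ± 0.72 for Vegfa and 5.99 ± 0.97 for Arg1. There Arg1 again did not overlap, as for 10.5% of genes, whereas Vegfa overlapped because of library 2 of manipulated SI at 7.90. Over both states and both kinds of donor, 17 of 18 libraries of SI and liver had more Vegfa than the highest of the 12 libraries of spleen and BM, and 10 of 18 had more Arg1. These counts share the contrast on which both genes were chosen. The standard errors above take libraries of different organs as independent.

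**Figure D2:**
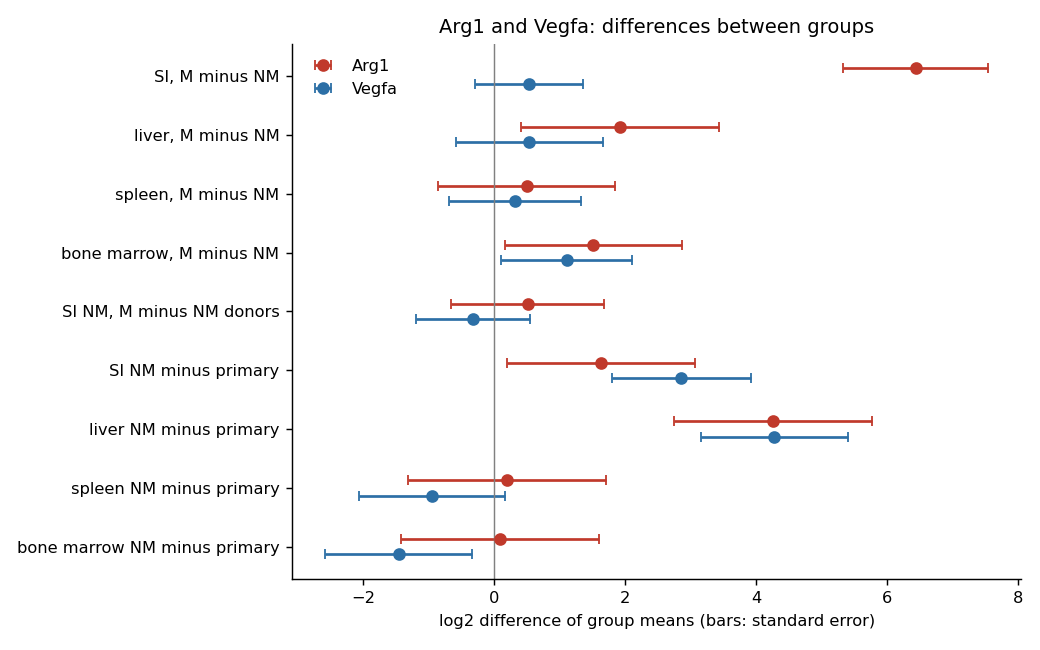
Differences between group means for Arg1 (red) and Vegfa (blue) on the log2 scale, with bars of 1 standard error from the fit over all libraries. The difference of Arg1 between manipulated and non-manipulated SI, 6.44 ± 1.11, is the largest. Its bar overlaps those of non-manipulated liver minus primary monocytes for Arg1 (4.26 ± 1.51) and Vegfa (4.28 ± 1.12). The Vegfa differences between the states lie between 0.31 and 1.10.

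Ordered by mean log2 level, Vegfa ran from manipulated liver (12.71) over non-manipulated liver (12.18), manipulated SI (11.29) and non-manipulated SI (10.75) to non-manipulated SI with manipulated donors (10.43). A step of 2.53 separated the last of these from primary monocytes of non-manipulated donors (7.90), exceeded the pooled SD of 1.25 and had no overlapping libraries. Manipulated BM (7.54), manipulated spleen (7.26), non-manipulated spleen (6.94), non-manipulated BM (6.43) and primary monocytes of the manipulated donor (6.24) followed. No other neighbouring groups with more than 1 library differed by more than their pooled SD.

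The state of the donor was not part of the choice of these genes and was tested. Monocytes of manipulated donors, recovered from SI of non-manipulated recipients, had 5184, 105, 141 and 784 normalised counts of Arg1. Libraries 1 and 4 lay above every library of non-manipulated SI with non-manipulated donors, and libraries 2 and 3 lay below every one. Libraries 1 and 4 also lay within the range of non-manipulated liver. The log2 mean of 8.96 ± 2.59 (SD, n = 4) differed from 8.45 by 0.51 ± 1.17 (SE, 95% interval -1.91 to 2.92), with an adjusted p of 0.969 by limma. The exact permutation test, two-sided, gave p = 0.8, where the smallest p that 4 against 4 libraries allow is 0.0286. The title of library 4 names mouse 4 but its description number 3, so libraries 3 and 4 may share an animal. The tests of both genes took the 4 libraries as independent. Without library 1 of the manipulated donors the difference was -0.62, so its direction rested on that library.

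Vegfa stood at 1724, 584, 3048 and 1172 normalised counts in the same 4 libraries. Libraries 1, 3 and 4 lay within the range of non-manipulated SI with non-manipulated donors, and library 2 below it. The log2 mean of 10.43 ± 1.00 (SD, n = 4) differed by -0.32 ± 0.87 (SE, 95% interval -2.11 to 1.47), with an adjusted p of 0.969 by limma and an exact permutation p of 0.629, two-sided. In this comparison 0% of the 57 genes passed the limma test and 5 had an unadjusted p under 0.05. EdgeR called 1 gene (Retnla) and DESeq2 3 genes (Ccl7, Il6 and Il23a), and neither tool called Arg1 or Vegfa. Retnla peaked at 7363 normalised counts in non-manipulated SI, against a group median of 46.8. With manipulated donors the highest library had 7472 against a median of 142 for Ccl7, 2102 against 62.3 for Il6 and 1838 against 295 for Il23a. The intervals of Arg1 and Vegfa allow differences of several fold in either gene. Arg1 of manipulated SI lay above all 4 libraries with manipulated donors, by 5.93 ± 1.11 between the means (SE).

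Across all 33 libraries the log2 levels of Arg1 and Vegfa correlated with a Pearson r of 0.71 and a Spearman rho of 0.74, given as a description because libraries share tissues and scaling. Without libraries 3 and 4 of manipulated SI, the farthest from the median of Arg1, r was 0.66. After subtraction of the group means, r was 0.44 and rho 0.28 over the 32 libraries in groups of more than 1. In the plot of one gene against the other, libraries of spleen and BM lay low in Vegfa. In Arg1, library 3 of manipulated BM stood at 10.47. Library 1 of manipulated BM (8.38) and library 3 of manipulated spleen (8.19) lay within the range of non-manipulated SI with non-manipulated donors. The rest of spleen and BM lay below that range. Libraries of liver were high in Vegfa, with Arg1 log2 levels from 9.16 to 13.36. Those of non-manipulated SI with non-manipulated donors combined Vegfa log2 levels of 9.41 to 11.69 with Arg1 log2 levels of 7.82 to 9.21. The Arg1 ranges of liver and this SI group thus overlapped. With manipulated donors, non-manipulated SI had Vegfa log2 levels of 9.19 to 11.57 and Arg1 log2 levels of 6.73 to 12.34. Library 2 of manipulated SI showed the opposite combination, with an Arg1 log2 level of 12.80 and a Vegfa log2 level of 7.90.

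**Figure D3:**
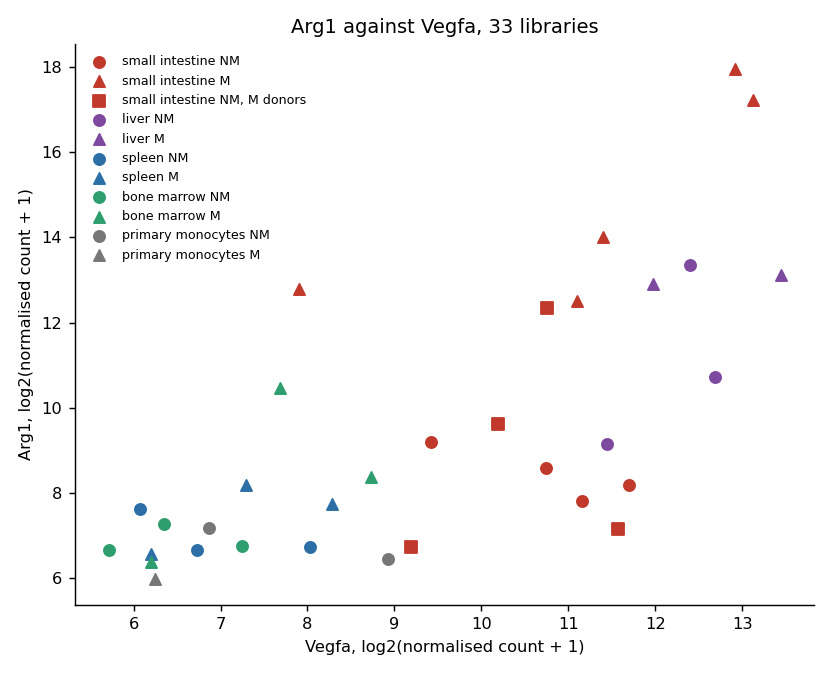
Arg1 (vertical axis) against Vegfa (horizontal axis), both as log2 of the normalised count plus 1, with 1 point for each of the 33 libraries, coloured by tissue and shaped by recipient state (squares: manipulated donors). Libraries of spleen and BM lie at low values of Vegfa, 1 of them with Arg1 at 10.47, and libraries 3 and 4 of manipulated SI at the upper right with Arg1 at 17.94 and 17.22.

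The genes most like Arg1 over the 33 libraries were Ccl7 (r = 0.86), Cxcl1 (0.82) and Il6 (0.80). Ccl7 encodes a monocyte-attracting chemokine, Cxcl1 a neutrophil-attracting chemokine and Il6 an inflammatory cytokine. After subtraction of group means, Cxcl1 (0.63), Ccl7 (0.56) and Il1a (0.47) led. The genes most like Vegfa were Il1b (r = 0.83), Cd86 (0.81) and Cebpb (0.78), which encode an inflammatory cytokine, a ligand for T cell costimulation and a transcription factor of myeloid cells. After subtraction of group means they were Cd68 (0.72), Relb (0.68) and Adgre1 (0.67), namely a lysosomal glycoprotein of macrophages, a subunit of NF-kappaB and the F4/80 antigen. Only Ccl7 and Cxcl1 were among the 3 leading genes by both measures, and these correlations describe libraries that share tissue and scaling.

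Levels of these genes are given as a description, since their choice used the same libraries. In manipulated SI, Ccl7, Cxcl1 and Il6 stood 9.29, 4.73 and 6.26 above primary monocytes of non-manipulated donors on the log2 scale, against 1.65, 1.00 and 1.63 in non-manipulated SI. Neither Ccl7 nor Il6 exceeded the background in these primary monocytes, so their differences start from the floor. Il1b stood 6.10 above the same primary monocytes in manipulated and 4.92 in non-manipulated SI, and 5.32 and 5.08 above them in manipulated and non-manipulated liver. Between the states, Cd86 differed by 0.28 ± 0.51 in SI and -0.06 ± 0.69 in liver, and Cebpb by 0.21 ± 0.47 and 0.31 ± 0.64 on the log2 scale (SE), and neither passed the test.

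**Figure D4:**
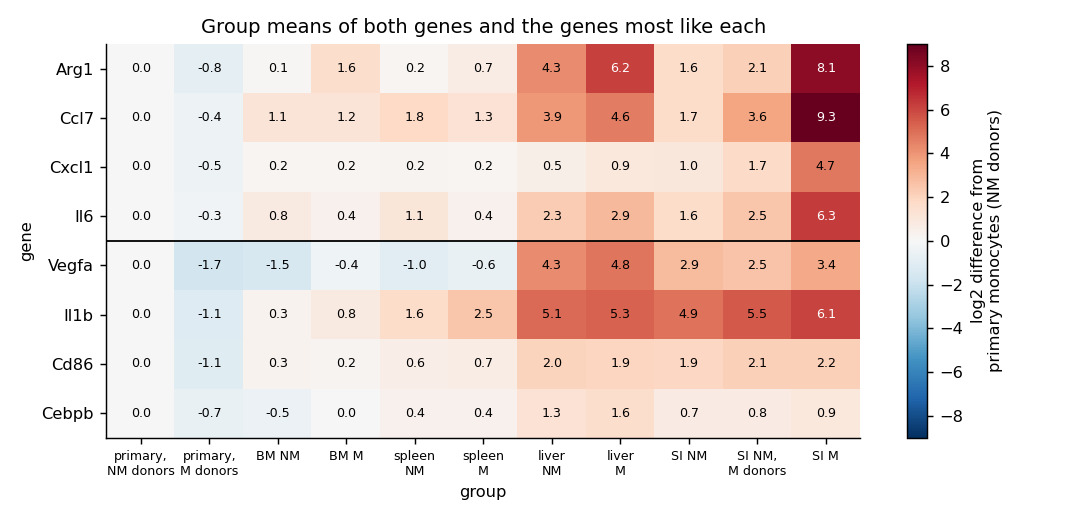
Group means of Arg1 and its 3 most similar genes (above the line) and of Vegfa and its 3 most similar genes (below), as log2 differences from primary monocytes of non-manipulated donors, printed in each cell and coloured by value. The row of Arg1 reaches 8.1 in manipulated SI, and the row of Vegfa stands at 2.9 to 4.8 in SI and liver of both states, except 2.5 with manipulated donors. Ccl7 and Il6 did not exceed the background in the primary monocytes of non-manipulated donors.

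Among genes of arginase expression and alternative activation, 9 besides Arg1 were measured, of 17 listed. In manipulated against non-manipulated SI, 1 passed the limma test in the upward direction, 0 in the downward and 8 did not pass, where 33.3% of all genes passed, with a median log2 difference of -0.64 against -0.01 over all genes. The gene that rose was Il10, an anti-inflammatory cytokine, by 1.88 ± 0.42 on the log2 scale (SE, adjusted p = 0.00147). Chil3, Retnla and Mrc1 often accompany Arg1 in alternatively activated macrophages and are named here after their values were seen. They differed by 0.21 ± 0.47, -1.13 ± 0.93 and 0.71 ± 0.59 (SE), and none passed the test. Retnla reached 7363 normalised counts in 1 library of non-manipulated SI, and exceeded the background in 3 of these 4 libraries. Its median was 46.8 in non-manipulated and 69.0 in manipulated SI, so the medians differed in the other direction.

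In non-manipulated liver against primary monocytes, Il10 rose by 2.30 ± 0.57 (SE, adjusted p = 0.00529) and Chil3, which encodes a chitinase-like protein, fell by 2.84 ± 0.63 on the log2 scale (SE, adjusted p = 0.00206). The call of Il10 in liver was lost without library 2 of primary monocytes (2.05, adjusted p = 0.110) and with TMM factors (1.66, adjusted p = 0.0655). The other 7 measured genes of the list did not pass, and 12.3% of all genes passed in this comparison. No gene of the list passed in non-manipulated SI, spleen or BM against primary monocytes, where 8.77%, 1.75% and 1.75% of all genes passed. None passed between the states in liver, spleen or BM, where 0%, 0% and 1.75% of all genes passed. The 1 gene called in BM was lost with the mouse number as a block, which left 0. At an unadjusted p under 0.05 there were 6 genes in liver, 6 in spleen and 8 in BM. The 6 listed genes of arginine use, among them Nos2, which competes for the substrate of arginase, were not measured.

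Of 20 listed genes of tissue repair and angiogenesis, 3 were measured, namely Vegfa, Tgfb1, a growth factor of matrix formation, and Cd44, a receptor for hyaluronan. Neither Tgfb1 nor Cd44 passed the test in any of the 9 comparisons. In manipulated against non-manipulated SI, Tgfb1 differed by -0.55 ± 0.27 and Cd44 by 1.16 ± 0.76 on the log2 scale (SE).

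Among inducers of both genes and their signalling, 11 of 19 listed genes were measured. In manipulated against non-manipulated SI, Il6 and Il10 rose and the other 9 did not pass, where 33.3% of all genes passed, with a list median of 0.28. Il6 rose by 4.63 ± 0.77 (SE, adjusted p = 8.4e-05), and no gene of this list fell. The transcription factors Cebpb and Stat6, the latter named after its values were seen, differed by 0.21 ± 0.47 and -0.64 ± 0.29 (SE). In non-manipulated SI against primary monocytes, Il1b (4.92 ± 0.72, SE, adjusted p = 1.2e-05) and Cd14, a co-receptor for endotoxin (2.32 ± 0.71, SE, adjusted p = 0.0424), rose. In non-manipulated liver, Il1b, Cd14 and Il10 rose, by 5.08 ± 0.76, 2.75 ± 0.75 and 2.30 ± 0.57 (SE). The calls of Cd14 did not hold with TMM factors (adjusted p = 0.187 in SI and 0.0857 in liver) or without library 2 of primary monocytes (0.48 and 0.175), and in SI also without library 1, 3 or 4 of non-manipulated SI (0.0619, 0.0974 and 0.0622). The median of all 57 genes in these 2 comparisons was 1.00 and 0.94, and the medians of the list were 0.84 and 1.10.

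Of the inflammatory cytokines, 5 of 7 listed genes were measured. In manipulated against non-manipulated SI, Il6, Il1a, Il23a and Tnf rose and Il1b did not pass (1.18 ± 0.56, SE), where 33.3% of all genes passed. The 3 largest changes were 4.63 ± 0.77 for Il6, 3.92 ± 1.06 for Il1a and 3.84 ± 0.86 for Il23a on the log2 scale (SE). Il1a and Il1b rose in non-manipulated SI and liver against primary monocytes, Il1a by 6.95 ± 1.37 and 8.27 ± 1.45 (SE), and the other 3 did not pass there. No gene of this list passed the limma test in the other 6 comparisons, which include the donor state, where DESeq2 called Il6 (adjusted p = 0.0060) and Il23a (0.0130).

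Markers of cell types bear on what the libraries held. Of 8 listed markers of Ly6C-high monocytes, 6 were measured. Their summed normalised count ranged from 244099.7 to 334521 in non-manipulated SI, from 235044 to 434652 in manipulated SI and from 204394 to 298611 in non-manipulated liver. Of these 6, Ccr2 and Csf1r fell in manipulated against non-manipulated SI, where 33.3% of all genes passed. Of 9 listed macrophage markers 7 were measured, and Cx3cr1 and Csf1r fell in the same comparison. The call of Csf1r was lost without library 2, 3 or 4 of non-manipulated SI or library 2 of manipulated SI, with adjusted p-values of 0.0553 to 0.101, and with the series matrix values (0.265), which also lost that of Ccr2 (0.0704). The summed normalised count of the 7 macrophage markers ranged from 73654 to 111520.0 in non-manipulated and from 28361 to 93184 in manipulated SI. Ccr7 was the only dendritic cell marker measured, and none of the listed markers of neutrophils, lymphocytes, hepatocytes, Kupffer cells or endothelial, epithelial and stromal cells was. The part of these marker levels in the levels of Arg1 and Vegfa was not tested.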

How the data were processed

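RNA of 100 sorted donor cells per library was reverse transcribed, pre-amplified with gene-specific primers and hybridised to nCounter probes, as the study's methods describe. How many primary monocytes were used is not stated in the labels. The authors deposited whole counts for 15 libraries, and for the other 18 a signal, namely counts multiplied by a constant per lane of up to 4, for a reason not given in the sources used here. Division gave whole numbers for 100% of 1988 values within 0.002, and these recovered counts were used. The deposited series matrix holds a score, a rescaled form of the same values, and served as an alternative.

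Recovered counts were divided by factors proportional to the geometric mean of Actb, Gapdh and Rpl19 and expressed as log2 of the value plus a pseudocount of 1. Genes above background in 2 or more libraries were tested, and all 57 met this. One limma fit (version 3.58.1, R 4.3.3, lmFit and eBayes, two-sided) held all 33 libraries with a mean for each of 11 groups, with Benjamini-Hochberg adjustment over 57 genes in each comparison and a threshold of 0.05. Same-numbered libraries of the 2 recipient states deviated together in spleen (correlations of 0.41 to 0.59) and BM (0.53 to 0.61), a pairing taken from the data and not from the labels. In both tissues library 3 was deposited without a lane multiplier and libraries 1 and 2 with one. Between organs of manipulated recipients, the mean correlation was 0.78 for spleen and BM, 0.82 for liver and spleen and -0.34 for SI and liver. In non-manipulated recipients these values were 0.66, 0.50 and 0.22. Contrasts across organs took all libraries as independent. The script was tested on simulated data. Arg1 and Vegfa, the gene lists and the tests were chosen with earlier results of these data known. Named genes are both members, genes of the 2 lists on arginase and on tissue repair past the threshold, up to 3 of each other list, and the 3 genes most correlated with each member, overall and within groups. Other genes are named as cell type markers, to resolve counts of 5 or fewer, or after their values were seen.

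Alternatives covered the scaling (edgeR 4.0.16 TMM factors, total count, each house-keeping gene left out, positive controls, series matrix), the multiplier, a pseudocount of 16, the background (subtracted or as a floor), each library left out, the mouse number as a block, only the 2 compared groups, edgeR and DESeq2 (1.42.0) on counts, an exact permutation test and the methods' t-test on log2 values. Alternatives without the filter are the same values, since no gene was removed.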

Additional observations from a re-analysis of the deposited data

Results flagged for a closer look

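In SI of non-manipulated recipients with manipulated donors, library 1 held 5184 normalised counts of Arg1 against 784 in the next. This gap was 0.866 of the range of the group, above the critical value of Dixon's test for 4 values on the scale of normalised counts, whereas on the log2 scale the gap was 0.486 of the range. It was the 1 gap past its critical value among 24 examined, which covered both genes, 3 groups, both ends and both scales. For values with a normal distribution, chance alone gives such a gap in about 1 of 20 groups on 1 scale. Whether these counts have that distribution was not tested. Vegfa in the same library lay within its group.

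Of 24 genes other than Arg1 and Vegfa named in the report, 6 changed differently with manipulation in SI than in the mean of liver, spleen and BM by limma. The change in SI minus the mean change elsewhere, which passed for 14% of all 57 genes, on the log2 scale was 7.57 for Ccl7 (adjusted p = 0.00183), 3.61 for Cxcl1 (5.8e-05), 4.78 for Il6 (0.000788), 4.69 for Il23a (0.00204), 2.58 for Il10 (0.000788) and 2.31 for Tnf (0.0127). Same-numbered libraries of different organs entered as independent. Ccl7, Cxcl1 and Il6 are named because they correlated most with Arg1 over the same libraries, so their place here is no independent result.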

How the results depend on the processing

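For the 18 differences of Arg1 and Vegfa that the report gives, 327 of 328 recomputed values moved by less than the SD between replicates or kept their side of the threshold, and 19 changed sign, all of them differences of at most 0.95 in size. Leaving out 1 library turned Vegfa between the states of liver to -0.20 (without manipulated library 2) and of spleen to -0.12 and -0.20 (without non-manipulated library 2 and manipulated library 1), and Vegfa in non-manipulated spleen against primary monocytes to 0.07 (without primary library 1). The value that moved by more was that of Arg1 in manipulated against non-manipulated SI without libraries 3 and 4, an alternative added after the data were seen, at 4.65. Over the other alternatives this difference ran from 5.68 to 7.04, the left-out libraries included. The donor state of Arg1 ran from -0.62 to 1.25 with 1 library left out and that of Vegfa from -0.77 to 0.09, with adjusted p-values of at least 0.191 in the models fitted. By edgeR the donor difference of Arg1 was 2.06. For Vegfa it was 0.31 with the series matrix values. The methods' t-test called 5 genes at the unadjusted threshold and 0 after Benjamini-Hochberg adjustment, neither member among them.

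Same-numbered libraries did not pair in SI, with correlations of -0.35 to 0.19 between the 2 states and of -0.36 to 0.09 between the 2 kinds of donor, whereas those of spleen and BM did. There the block, added after the data were seen, left the differences of Arg1 and Vegfa as they were (0.49 and 0.31 in spleen, 1.51 and 1.10 in BM), with 0 genes called in spleen and 0 in BM, against 0 and 1. With the mouse number as a block, the difference in SI was 7.04 for Arg1 and 0.58 for Vegfa, the donor difference 0.51 and -0.32, and the genes called 14 in SI, 0 for the donor state and 11 for non-manipulated liver against primary monocytes. Genes called for the donor state were 1 by edgeR and 3 by DESeq2, against 0. Genes called for non-manipulated liver against primary monocytes were 7, and 11 with the background subtracted, 17 by DESeq2 and 4 to 11 with 1 library left out, the extremes without primary library 2 and without primary library 1. Of 18 calls of other genes named in the report, recomputed after the data were seen, 12 held in all alternatives run and 6 were lost in at least 1, namely Ccr2 and Csf1r in SI between the states, Cd14 in SI and liver, and Il10 and Chil3 in liver, the last only with the 2 compared groups alone (adjusted p = 0.107). With the block, those of Ccr2, Csf1r, Cd14 and Il10 were lost (adjusted p = 0.111 to 0.551). No direction turned. The median of all genes in liver against primary monocytes was 0.94, and 0.31 with TMM factors. Vegfa counts under 4 times the background limit its precision in 7 of 12 libraries of spleen and BM.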
